A study of Mus musculus with 48 samples.

Results

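The expression of 8 secreted ligands of the BMP family, Bmp2, Bmp4, Bmp5, Bmp6, Bmp7, Bmp8a, Gdf5 and Gdf6, was followed in mouse skin over the hair cycle and in the ear. The members were found by their gene names among the 46983 genes listed in each of the deposited tables, and all 8 were listed in both. Whole skin of C57BL/6 mice had been sequenced from the chin, the ventral side (ventrum) and the dorsal side (dorsum) at 6 stages, which were competent and refractory telogen, early, mid- and late anagen, and catagen, in 43 libraries that form 18 groups of 2 or 3. The ear table holds 7 libraries, of which 2 are telogen skin of the ear, 3 are the cartilage/muscle complex that lies inside the ear and 2 are the dorsal competent telogen libraries repeated with the same values, so that 48 libraries are distinct. No transgene, deletion or treatment was named for any group, and the ages of the mice and whether replicates came from separate mice are not given in the sources used here, so that p-values measure only the spread between these libraries.

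BMP and GDF ligands are secreted dimers that bind type I and type II receptor kinases, which phosphorylate SMAD1, SMAD5 and SMAD9. Together with SMAD4 these enter the nucleus and switch on response genes such as the Id genes, Smad6, Smad7 and Msx2, while secreted antagonists such as Noggin and Gremlin bind the ligands outside the cell. In the hair follicle, BMP signalling keeps the bulge stem cells quiet during the resting phase, telogen, and its decline accompanies entry into the growth phase, anagen. The same pathway acts in the differentiation of the growing hair shaft and its sheath, and GDF5 and BMP5 are known from cartilage and joint formation. The study asked whether the domains of the skin differ in such putative inhibitors of hair growth, and why ear follicles rarely enter anagen.

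Values are FPKM, fragments scaled by transcript length and by the depth of the library, and were listed with 2 decimals. Depth was read from the steps that single fragments leave in the low values, and lay between 6703383 and 29922547 fragments per library. A single fragment was thus worth 0.0093 to 0.0791 FPKM for the members. Several groups stood apart from their labels. The summed level of 6 cell cycle genes was 28.7 to 57.6 FPKM in the 3 refractory telogen groups and in ventral early anagen, and 142.3 to 429.1 FPKM in all other groups, the competent telogen groups included. The proliferation gene Mki67 was at 11.1 to 13.5 FPKM in chin and ventral competent telogen and at 1.39 to 1.42 FPKM in ventral early anagen. The inner root sheath, a layer built around the growing hair shaft, was marked by 7 genes, whose sum was lowest in ventral early anagen (4490.9 to 4828.2 FPKM) and high in dorsal competent telogen (23318.8 to 23645.1 FPKM). The 2 dorsal competent telogen libraries also lay closer to the 2 chin late anagen libraries than any other groups lay to each other. Their spread was 1.45 to 1.60 times the counting noise in these 4 pairs of libraries, below the 1.93 between the chin late anagen replicates and below all other of 871 pairs between groups, which started at 2.22. The dorsal competent telogen replicates differed by 1.05 times the counting noise over genes with 20 to 400 fragments and by 1.52 times above that, and averaging them as 1 sample left the counts of member calls in skin as given here and lowered that in the ear table, over all 8 members and 3 comparisons, from 22 to 19. The 2 ventral refractory telogen libraries had the widest spread of the 36 replicate pairs. They differed by 5.12 times the counting noise over genes with 20 to 400 fragments and by 76.2 times above that. The location label of ventral catagen replicate 1 names the ear, while its title and column name put it in ventral skin. Its group's 2 libraries held 22755.1 and 26461.2 FPKM of the inner root sheath genes, and without this library the number of member calls over the stages, in the growth and telogen contrasts, among the 3 domains and for the interaction was the same. Results that rest on these groups are given with and without them where the call or the value moved.

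In skin, transcripts of 4 ligands were abundant, and 4 were scarce. Bmp4 and Bmp7 together made up between 55.6% and 74.1% of the summed FPKM of the 8 ligands, with a median of 65.4% over the 43 libraries. Bmp4 was the leading ligand in 42 libraries and Bmp7 in 1. The share of Bmp8a ran from 6.08% to 25.6% and that of Bmp2 from 8.20% to 21.6%. Bmp6 contributed at most 2.34%, Bmp5 at most 1.08%, Gdf5 at most 0.55% and Gdf6 at most 0.30%. The summed level was lowest in chin refractory telogen, with 57.4, 57.8 and 58.7 FPKM in its 3 libraries, and highest in dorsal refractory telogen (93.1 and 94.3 FPKM) and in 1 of the 2 ventral refractory telogen libraries (94.7 FPKM). The other ventral library, at 75.3 FPKM, lay below all chin catagen libraries (79.5 to 83.8 FPKM) and ventral late anagen libraries (82.05 to 86.03 FPKM). FPKM are scaled by transcript length, so these shares compare levels between genes.

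**Figure D1:**
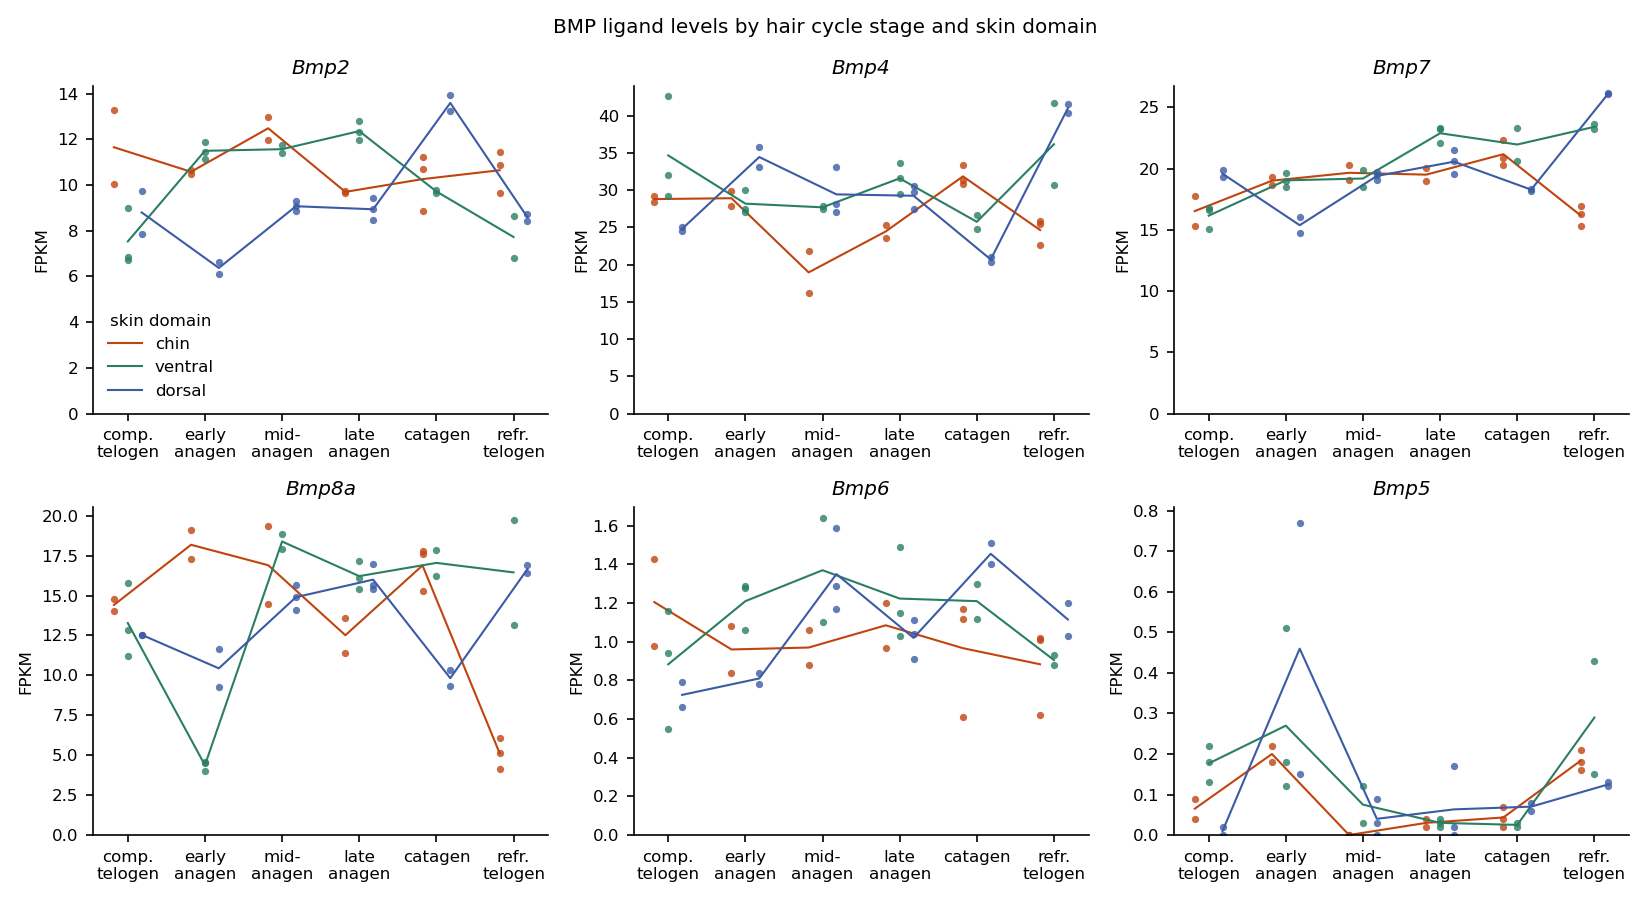
FPKM of 6 ligands (vertical axes, each with its own scale from 0) at the 6 stages of the cycle (horizontal axes, comp. for competent and refr. for refractory) in chin, ventral and dorsal skin, with a point for each library and lines through the group means. Bmp8a is lowest in ventral early anagen (mean 4.37 FPKM) and chin refractory telogen (5.12 FPKM), while Bmp4 and Bmp7 peak in dorsal refractory telogen (41.0 and 26.1 FPKM).

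Of the 8 ligands, 6 passed the filter of at least 0.5 FPKM in at least 2 libraries and were tested in skin. Bmp5 passed it with exactly 2 libraries, both of early anagen, where it was highest, and Gdf5 and Gdf6 did not pass. Bmp5 is kept in the counts of 6 below, but having passed through libraries where it is high, its call over the stages is no support. Over the 6 stages, 3 of the 6 changed in chin skin (limma, Benjamini-Hochberg adjusted), where 66.2% of all 21257 genes tested did. In ventral skin 4 of the 6 changed, against 70.2% of all genes, and in dorsal skin all 6 changed, against 68.5%. Bmp5 was not called in chin and ventral skin, so whether the ventral share lay below that of all genes depends on counting it. No excess or lack of change among the ligands is read from these shares. Bmp4, Bmp7 and Bmp8a changed in all 3 domains and Bmp2 in ventral and dorsal skin. The dorsal calls of Bmp5 and Bmp6 were not stable. That of Bmp5 was lost when libraries were scaled by the median of ratios (adjusted p = 0.0593) or quantile normalized (0.107), and that of Bmp6 without the chin late anagen and dorsal competent telogen groups (0.0802).

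The stages ran a different course in the 3 domains for Bmp2 (adjusted p = 7.72e-07), Bmp4 (3.83e-06), Bmp7 (5.16e-08) and Bmp8a (4.36e-12), which is 4 of 6 ligands, where 73.3% of all genes showed such an interaction. None of these 4 calls was lost under any alternative tried or without any 1 library. Bmp5 and Bmp6 did not pass (0.639 and 0.11). At a single stage, the share of ligands that differed among the 3 domains was 3 of 6 in competent telogen (54.0% of all genes), 3 in early anagen (51.6%), 2 in mid-anagen (38.1%), 2 in late anagen (20.8%), 4 in catagen (42.9%) and 4 in refractory telogen (42.2%). Bmp2 differed among the domains at all 6 stages, Bmp7 at 5, Bmp4 at 4 and Bmp8a at 3. Bmp5 and Bmp6 passed at none. In competent telogen, the calls of Bmp4 (adjusted p = 0.00989) and Bmp7 (0.00381) were lost without the chin late anagen and dorsal competent telogen groups, with 0.192 and 0.842 for ventral against chin skin alone. At mid-anagen the call of Bmp2 (0.00721) was lost on the TPM scale (0.156) and that of Bmp4 (7.04e-04) without chin mid-anagen replicate 2 (0.0763), and at early anagen that of Bmp7 (0.00107) without dorsal early anagen replicate 2 (0.0575).

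Bmp8a, a ligand best known from the male germ line, showed the widest swing of the well expressed members, 4.2-fold from the lowest to the highest group mean. The gene lies at chr4:123312645-123343252 on the minus strand (GRCm38), and shares its strand there with Oxct2a, which was at 0 to 0.39 FPKM. Its near copy Bmp8b was at 0 to 0.18 FPKM in skin, and how fragments were divided between both cannot be told from FPKM. The 250 bases before its start, at chr4:123343253-123343502 on the minus strand, are shown because this ligand moved most among the well expressed members and ran with the BMP response genes Bambi and Msx2, described further on. They come from RefSeq on GRCm38.p6, whose table held this region for 4 of the 8 members. Capitals would mark a match to 1 of 4 motifs, and there was none.

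Bmp8a, 5′ to 3′: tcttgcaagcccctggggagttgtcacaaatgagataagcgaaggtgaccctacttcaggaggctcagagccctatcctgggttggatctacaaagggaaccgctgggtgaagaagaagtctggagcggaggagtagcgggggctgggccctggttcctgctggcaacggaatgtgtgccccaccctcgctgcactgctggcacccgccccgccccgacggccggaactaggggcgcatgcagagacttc

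The motifs searched on both strands were CTTTGA for TCF/LEF factors, GGCGCC for BMP SMADs, TAATTG for MSX-type homeobox factors and ACAATG for SOX factors and no motif contains another. Of 32851 regions of this length before RefSeq starts, 13.8%, 9.6%, 7.2% and 10.7% held them. The absence of a match says only that these letters are not in this window. GC content was 62% in the Bmp8a region against a median of 52.4% over all regions.

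In chin skin, Bmp8a was at 14.76 and 14.06 FPKM in competent telogen, 17.26 and 19.1 in early anagen, 19.34 and 14.46 in mid-anagen, 11.41 and 13.62 in late anagen, 17.82, 15.26 and 17.58 in catagen, and 5.16, 6.08 and 4.13 in refractory telogen. Ventral skin held 15.76, 12.85 and 11.23 FPKM in competent telogen, 4.51, 4.58 and 4.03 in early anagen, 17.93 and 18.84 in mid-anagen, 17.17, 15.41 and 16.07 in late anagen, 16.21 and 17.88 in catagen, and 13.17 and 19.73 in refractory telogen. In dorsal skin it was at 12.54 in both competent telogen libraries, 11.63 and 9.25 in early anagen, 15.68, 14.9 and 14.12 in mid-anagen, 15.63, 16.95 and 15.41 in late anagen, 9.32 and 10.33 in catagen, and 16.42 and 16.89 in refractory telogen. The 3 chin refractory telogen and 3 ventral early anagen libraries lay below all 37 others, and overlapped with each other. In dorsal skin the low stages were early anagen and catagen, and refractory telogen was among the high ones.

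From competent to refractory telogen, Bmp8a fell by 1.34 on the log2(FPKM + 1) scale in chin skin (SE 0.14, adjusted p = 1e-08). The scale understates the change of low genes. It was the single ligand of 6 called in that comparison, where 36.3% of all genes were. The call held under each alternative that kept chin competent telogen and without any 1 library. It cannot be given without that group. In ventral and dorsal skin the differences were 0.28 (SE 0.14, adjusted p = 0.125) and 0.38 (SE 0.16, adjusted p = 0.0803), and neither passed. The dorsal change compares refractory telogen with the libraries that matched chin late anagen, and cannot be given without them. The ventral difference passed at 0.67 under the median of ratios (adjusted p = 1.14e-04), at 0.66 after quantile normalization (1.26e-04), at 0.40 without ventral competent telogen replicate 1 (0.0336) and at 0.55 without ventral refractory telogen replicate 2 (0.00842). The change of Bmp8a itself differed between the domains, by 1.62 for ventral minus chin skin (SE 0.20, adjusted p = 3.96e-07) and by 1.73 for dorsal minus chin skin (SE 0.21, adjusted p = 2.44e-07). Of the 6 ligands, 2 differed in the first of these comparisons, where 34.5% of all genes did, and 3 in the second, where 27.0% did. Skeletal muscle markers were highest in chin refractory telogen, with a sum over 11 genes of 13401.5 to 21470.9 FPKM against 584.0 to 620.4 FPKM in chin competent telogen. Chin competent telogen in turn held 281.4 to 307.6 FPKM of the cell cycle genes, against 40.4 to 57.6 FPKM in chin refractory telogen. Of the inner root sheath genes it held 11423.3 to 12439.7 FPKM, against 5856.4 to 8797.2 FPKM. The part of these differences in the fall of Bmp8a was not tested. In whole skin, fewer cells of a type and less RNA per cell cannot be told apart.

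At early anagen, Bmp8a separated the 3 domains. Ventral skin was 1.84 below chin skin on the log2(FPKM + 1) scale (SE 0.14, adjusted p = 3.19e-11), and Bmp8a was the single ligand called there, where 32.9% of all genes were. Dorsal skin was 0.75 below chin skin (SE 0.16, adjusted p = 6.58e-04), where 3 ligands and 27.0% of all genes were called, and 1.08 above ventral skin (SE 0.14, adjusted p = 4.46e-07), where 3 ligands and 41.7% of all genes were. None of these 3 calls was lost under any alternative that kept the groups compared. The libraries labelled ventral early anagen held few transcripts of cell cycle and inner root sheath genes, as given above, and without this group the change of Bmp8a over the ventral stages no longer passed (adjusted p = 0.067 in place of 3.3e-12).

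At catagen, Bmp8a was lower in dorsal skin than in chin skin by 0.72 (SE 0.14, adjusted p = 1.30e-04) and than in ventral skin by 0.74 (SE 0.16, adjusted p = 3.90e-04), on the same scale. Of the 6 ligands, 4 were called for dorsal against chin skin and 3 for dorsal against ventral skin, where 41.3% and 35.4% of all genes were. Bmp4 was also lower in dorsal than in chin catagen, by 0.60 (SE 0.12, adjusted p = 2.39e-04), and Bmp2 was higher in dorsal than in ventral catagen, by 0.44 (SE 0.12, adjusted p = 0.00489). The rise of Bmp2 over chin catagen, by 0.38 (SE 0.11, adjusted p = 0.00679), was lost without chin catagen replicate 1 (0.29, adjusted p = 0.0528) or dorsal catagen replicate 1 (0.34, adjusted p = 0.0665), and the lower dorsal value of Bmp7 against ventral skin, by 0.25 (SE 0.07, adjusted p = 0.00864), without ventral catagen replicate 1 (-0.16, adjusted p = 0.186). Against chin skin that of Bmp7 was -0.20 (SE 0.07, adjusted p = 0.0173), lost without chin catagen replicate 1 (adjusted p = 0.082), dorsal catagen replicate 1 (0.0716) or dorsal catagen replicate 2 (0.0892). In refractory telogen, Bmp8a was higher than in chin skin by 1.5 in ventral skin (SE 0.14, adjusted p = 2.68e-09) and by 1.54 in dorsal skin (SE 0.14, adjusted p = 1.47e-09), as the median of all genes stood at -0.17 and -0.14. In these comparisons 4 and 3 of the 6 ligands were called, and 30.7% and 34.8% of all genes.

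The genes whose group means ran closest to those of Bmp8a were Prep, a peptidase (Pearson r = 0.92 over 18 groups), Bambi, a membrane pseudoreceptor that dampens BMP signalling and is itself a response gene (0.91), and Msx2, a homeobox gene that BMP signalling switches on (0.90). They were found among 10578 genes, and the groups share their libraries, so that these values are a description. Msx2 was at 15.4 to 16.7 FPKM in ventral early anagen and at 16.2 to 28.7 FPKM in chin refractory telogen, the same groups in which Bmp8a was low, and between 47.3 and 109.3 FPKM in all others. The inner root sheath sum had r = 0.76 with Bmp8a and the hair shaft sum 0.59. In the groups with low Bmp8a the inner root sheath sum was also low, at 4490.9 to 4828.2 FPKM in ventral early anagen and 5856.4 to 8797.2 FPKM in chin refractory telogen. Dorsal early anagen, with 7830.3 to 8303.4 FPKM of these sheath genes, held 9.25 and 11.63 FPKM of Bmp8a. The part of the sheath in these levels was not tested.

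**Figure D2:**
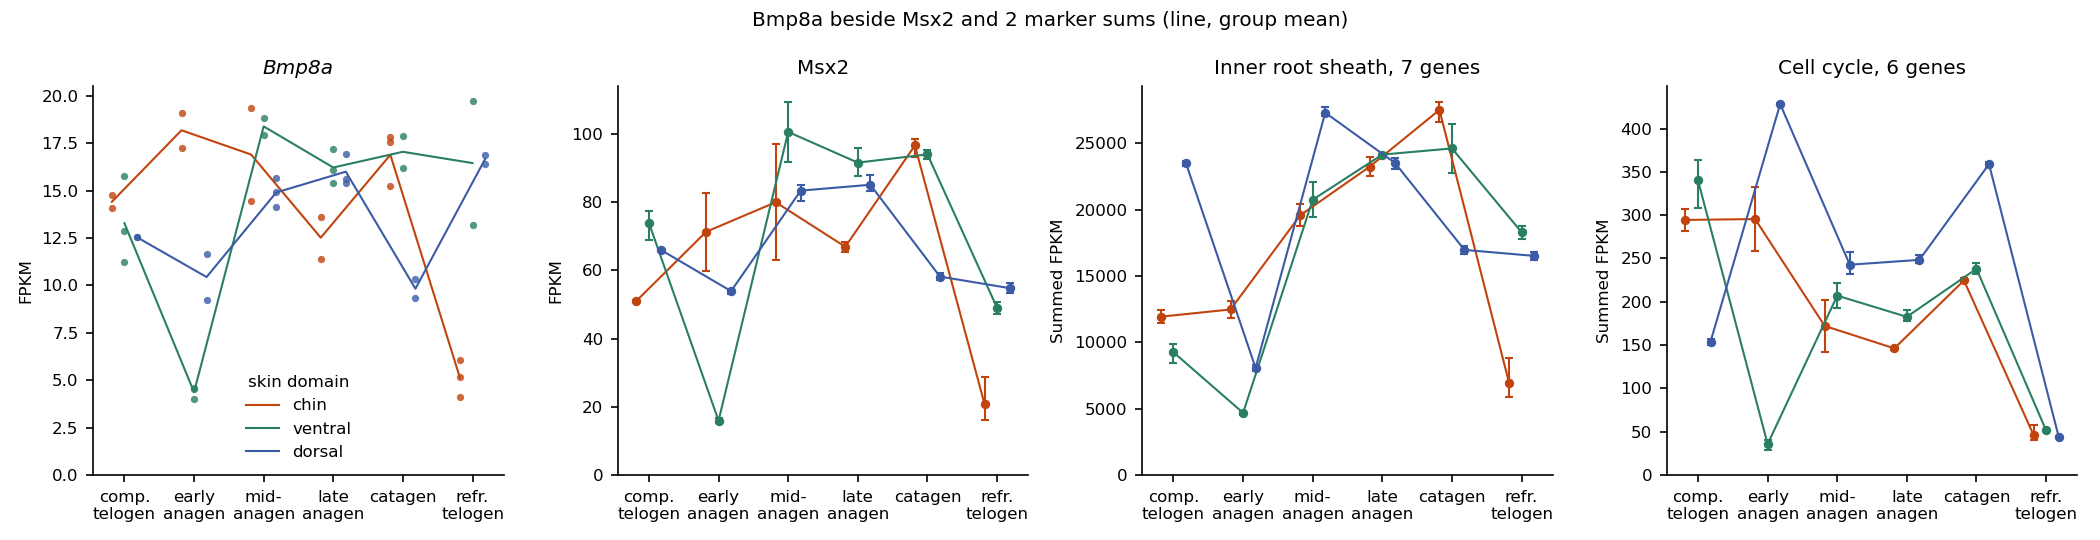
Bmp8a and Msx2 in FPKM and the summed FPKM of 7 inner root sheath and 6 cell cycle genes (vertical axes) by stage (horizontal axes) in chin, ventral and dorsal skin. Points for Bmp8a are libraries, and points with bars in the other panels are group means with the lowest and highest library. All 4 are low in ventral early anagen and chin refractory telogen, while the cell cycle sum is also low in the other refractory telogen groups (43.4 to 52.2 FPKM), where Bmp8a is at 13.2 to 19.7 FPKM.

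Bmp7, a ligand of the follicle epithelium and its dermal papilla (chr2:172868012-172940321, minus strand), varied least among the abundant members, with a ratio of 1.70 between the highest and lowest group mean. In chin skin it was at 17.73 and 15.33 FPKM in competent telogen, 18.67 and 19.35 in early anagen, 20.27 and 19.04 in mid-anagen, 20.05 and 18.96 in late anagen, 22.34, 20.88 and 20.31 in catagen, and 15.28, 16.93 and 16.33 in refractory telogen. Ventral skin held 16.64, 15.04 and 16.78 FPKM in competent telogen, 18.49, 19.63 and 19.0 in early anagen, 19.87 and 18.51 in mid-anagen, 22.12, 23.31 and 23.23 in late anagen, 23.35 and 20.58 in catagen, and 23.2 and 23.62 in refractory telogen. Dorsal skin held 19.88 and 19.28 FPKM in competent telogen, 16.04 and 14.71 in early anagen, 19.04, 19.68 and 19.47 in mid-anagen, 20.58, 19.59 and 21.52 in late anagen, 18.21 and 18.35 in catagen, and 26.08 and 26.17 in refractory telogen. Its 2 highest values of all 43 libraries were those of dorsal refractory telogen. In ventral and dorsal skin the refractory libraries lay above the competent ones without overlap, and in chin skin the 2 groups overlapped.

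From competent to refractory telogen, Bmp7 rose by 0.51 in ventral skin (SE 0.07, adjusted p = 4.97e-07), where it was the single ligand of 6 called and 42.6% of all genes were. All genes tested had a median of -0.22 in this comparison, and the difference of Bmp7 ran from 0.27 with values rescaled to TPM to 0.91 under the median of ratios. The 2 ventral refractory telogen libraries, the replicate pair with the widest spread over all genes, were at 23.2 and 23.62 FPKM of Bmp7. The sum of 7 adipocyte genes was highest in ventral refractory telogen (3472 to 3721 FPKM, against 1207.5 to 1759.9 FPKM in ventral competent telogen), and its part in this rise was not tested. In dorsal skin Bmp7 rose by 0.40 (SE 0.07, adjusted p = 1.83e-04), and with Bmp4 made 2 of 6 ligands called there, against 22.2% of all genes. In chin skin the difference was -0.03 (SE 0.07, adjusted p = 0.825). The change was larger than in chin skin by 0.54 in ventral skin (SE 0.10, adjusted p = 6.09e-05) and by 0.43 in dorsal skin (SE 0.10, adjusted p = 0.00177). The dorsal values compare refractory telogen with the libraries that matched chin late anagen, and cannot be given without them. Between the domains at refractory telogen, Bmp7 was higher than in chin skin by 0.51 in ventral (SE 0.07, adjusted p = 1.22e-06) and by 0.66 in dorsal skin (SE 0.07, adjusted p = 9.15e-09).

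The neighbours of Bmp7 in pattern were Efhd1, a mitochondrial calcium-binding protein (r = 0.90 over 18 groups), Anxa9 (0.89) and Dusp2, a phosphatase of MAP kinases (0.89). Efhd1 was also highest in refractory telogen of ventral skin (24.1 to 25.6 FPKM) and dorsal skin (23.8 to 24.3 FPKM), and lowest in dorsal early anagen (4.18 to 4.80 FPKM), as Bmp7 was. Bmp7 and the sum of 6 dermal papilla genes ran in opposite directions over the groups (r = -0.72).

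Bmp4, a ligand of the dermal papilla and dermis (chr14:46383520-46390669, minus strand) and the most abundant member, was at 28.36 and 29.28 FPKM in chin competent telogen, 27.92 and 29.95 in early anagen, 21.78 and 16.15 in mid-anagen, 25.35 and 23.6 in late anagen, 33.41, 30.84 and 31.37 in catagen, and 25.84, 22.65 and 25.49 in refractory telogen. In ventral skin it was at 42.69, 29.25 and 32.12 FPKM in competent telogen, 27.47, 27.05 and 30.1 in early anagen, 27.93 and 27.49 in mid-anagen, 33.61, 29.49 and 31.71 in late anagen, 24.83 and 26.7 in catagen, and 30.7 and 41.68 in refractory telogen. In dorsal skin it was at 24.51 and 25.13 FPKM in competent telogen, 35.8 and 33.14 in early anagen, 27.05, 28.2 and 33.11 in mid-anagen, 29.79, 30.54 and 27.47 in late anagen, 21.07 and 20.34 in catagen, and 41.61 and 40.44 in refractory telogen. Chin mid-anagen and dorsal catagen were the lowest groups, and the ventral competent and refractory telogen groups each held 1 library well above the rest of its group (42.69 and 41.68 FPKM). Of the 17 steps in the order of the 18 group means, 15 joined groups whose libraries overlapped.

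Dorsal refractory telogen lay above dorsal competent telogen for Bmp4 without overlap, by 0.70 on the log2(FPKM + 1) scale (SE 0.14, adjusted p = 2.92e-04). The differences were -0.22 in chin skin (SE 0.12, adjusted p = 0.182) and 0.06 in ventral skin (SE 0.12, adjusted p = 0.753). The dorsal change exceeded the chin change by 0.92 (SE 0.18, adjusted p = 3.13e-04), a call that held under each alternative that kept dorsal competent telogen. It exceeded the ventral change by 0.64 (SE 0.18, adjusted p = 0.00788), the single ligand of 6 called there against 33.1% of all genes. That call was lost under the median of ratios (0.22, adjusted p = 0.35), after quantile normalization (0.39, adjusted p = 0.0699) and without ventral refractory telogen replicate 2 (0.43, adjusted p = 0.101). The dorsal change of Bmp4 compares refractory telogen with the libraries that matched chin late anagen, and cannot be given without them. In refractory telogen, Bmp4 was higher in dorsal than in chin skin by 0.71 (SE 0.12, adjusted p = 3.67e-05). The ventral excess over chin skin of 0.52 (SE 0.12, adjusted p = 0.00185) was lost with values rescaled to TPM (0.35, adjusted p = 0.0539) and without ventral refractory telogen replicate 1 (0.31, adjusted p = 0.0969).

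Bmp2, a ligand of the hair matrix and of the fat layer (chr2:133552159-133562885, plus strand), was the member that differed among domains at every stage. In chin skin it was at 13.29 and 10.03 FPKM in competent telogen, 10.5 and 10.67 in early anagen, 12.99 and 11.99 in mid-anagen, 9.75 and 9.66 in late anagen, 8.88, 11.22 and 10.69 in catagen, and 9.64, 10.88 and 11.44 in refractory telogen. In ventral skin it was at 6.85, 9.01 and 6.74 FPKM in competent telogen, 11.47, 11.89 and 11.15 in early anagen, 11.75 and 11.4 in mid-anagen, 11.98, 12.31 and 12.81 in late anagen, 9.65 and 9.8 in catagen, and 6.79 and 8.67 in refractory telogen. Dorsal skin held 9.75 and 7.86 FPKM in competent telogen, 6.12 and 6.63 in early anagen, 9.07, 9.3 and 8.86 in mid-anagen, 8.94, 8.47 and 9.42 in late anagen, 13.25 and 13.95 in catagen, and 8.74 and 8.45 in refractory telogen. Ventral skin was low in both telogens and high from early to late anagen, dorsal skin was lowest in early anagen and highest in catagen, and the chin groups overlapped over most of the cycle. At early anagen the dorsal level of Bmp2 lay below that of chin skin by 0.65 (SE 0.12, adjusted p = 2.21e-04) and below that of ventral skin by 0.76 (SE 0.11, adjusted p = 2.59e-06). Neither call was lost under any alternative that kept the groups compared.

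Over the 18 groups, Bmp2 and Bmp4 ran in opposite directions (r = -0.64) and Bmp2 and Bmp6 together (0.60), while Bmp7 and Bmp8a had r = 0.47. The groups are few and share libraries with every comparison above. The closest neighbours in pattern were the ubiquitin ligase genes Rnf103 (r = 0.80) and Rnf11 (0.77) and the importin Kpna4 (0.77) for Bmp2, and Slc31a2, a copper transporter (0.80), Pigc (0.79) and Orai2 (0.79) for Bmp4.

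The growth contrast set mid- and late anagen against both telogens of a domain. In ventral skin Bmp2 rose by 0.60 (SE 0.08, adjusted p = 8.64e-07), a call that held under each alternative. Chin skin showed a rise of Bmp8a by 0.68 (SE 0.11, adjusted p = 6.95e-06), which was 1.35 without the competent telogen groups (adjusted p = 1.3e-09). This rise rests on refractory telogen, where Bmp8a was at 4.13 to 6.08 FPKM. In chin competent telogen it was at 14.06 to 14.76 FPKM, within the 11.41 to 19.34 FPKM of chin mid- and late anagen. Bmp7 rose in chin skin by 0.25 (SE 0.05, adjusted p = 2.01e-04), lost on the TPM scale (0.13, adjusted p = 0.0535), and fell by 0.17 in dorsal skin (SE 0.05, adjusted p = 0.00593), also lost on that scale (-0.05, adjusted p = 0.491). The falls of Bmp4 by 0.30 in chin and 0.24 in ventral skin and the ventral rise of Bmp6 by 0.28 (adjusted p = 0.00909, 0.04 and 0.0345) were each lost without the competent telogen groups (adjusted p = 0.101, 0.0525 and 0.111). Thus 3 of 6 ligands were called in chin, 3 in ventral and 1 in dorsal skin, where 42.6%, 31.8% and 31.4% of all genes were. The median of all genes was -0.17 in the chin contrast. The split of 4 higher and 3 lower calls became 4 and 1 on the TPM scale, 7 and 3 under the median of ratios and 7 and 2 after quantile normalization.

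The growth contrast itself differed between domains for 2 of 6 ligands in each pair of domains, against 13.3% of all genes for ventral minus chin, 40.8% for dorsal minus chin and 26.7% for dorsal minus ventral skin. For Bmp2 the ventral contrast exceeded the chin contrast by 0.60 (SE 0.11, adjusted p = 5.44e-04) and the dorsal one fell short of the ventral one, at -0.55 (SE 0.11, adjusted p = 4.56e-04). Neither of these calls was lost under any alternative. Bmp7 and Bmp8a made up the rest, with dorsal minus chin values of -0.42 (SE 0.07, adjusted p = 1.80e-05) and -0.59 (SE 0.15, adjusted p = 0.00176), of which the second was lost on the TPM scale (-0.35, adjusted p = 0.0806). The chin contrast of Bmp8a in this difference rests on refractory telogen, as given above.

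**Figure D3:**
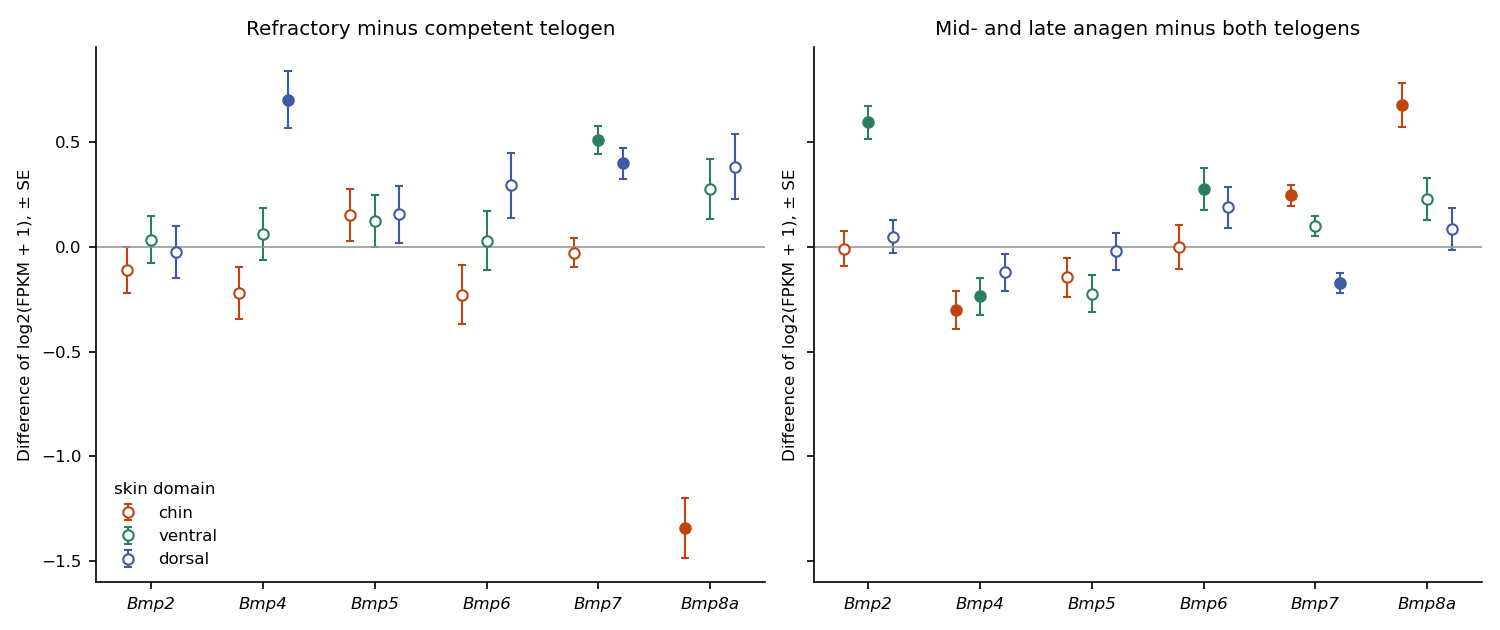
Differences on the log2(FPKM + 1) scale (vertical axes) for 6 ligands (horizontal axes) in chin, ventral and dorsal skin, for refractory minus competent telogen on the left and for mid- and late anagen minus both telogens on the right, with bars of 1 SE. Filled circles passed an adjusted p of 0.05. The fall of Bmp8a in chin skin by 1.34 stands far below the other values on the left, and the rise of Bmp8a in chin skin by 0.68 is the highest on the right. Both rest on the low level of Bmp8a in chin refractory telogen.

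Bmp6, a ligand of the epidermis and hair follicle (chr13:38345107-38500302, plus strand), stayed between 0.55 and 1.64 FPKM in all 43 libraries, with a median of 1.06. Its highest group was dorsal catagen (1.40 and 1.51 FPKM) and its lowest dorsal competent telogen (0.66 and 0.79 FPKM), and no step in the order of its 18 groups was free of overlap. The gene lies opposite to Txndc5 on the other strand, which was at 37.0 to 122.2 FPKM, and whether counting used the strand is not given in the sources used here. Bmp5 was at 0 in 5 libraries and had a median of 0.08 FPKM. Its highest values were 0.77 and 0.15 FPKM in dorsal early anagen, 0.51, 0.18 and 0.12 FPKM in ventral early anagen and 0.43 and 0.15 FPKM in ventral refractory telogen. Each of these groups was led by a single library. Gdf5 was listed at 0 in 19 libraries and reached 0.32 FPKM, and Gdf6 was listed at 0 in 13 and reached 0.20 FPKM. At such levels a library held few fragments of these genes. Gdf5 and Gdf6 were not tested in skin, and Bmp5 was tested with the limits given above.

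The rest of the pathway was followed by fixed lists. In chin skin, from competent to refractory telogen, 7 of 10 BMP response genes were lower and none higher, with a median difference of -0.80 against 0 for all genes. Of all genes tested, 17.8% were higher and 18.4% lower there. The cell cycle sum was 281.4 to 307.6 FPKM in chin competent and 40.4 to 57.6 FPKM in chin refractory telogen. The inner root sheath sum was 11423.3 to 12439.7 and 5856.4 to 8797.2 FPKM. The part of these differences in the lower response genes was not tested. Msx1 fell by 2.54 (SE 0.25), Msx2 by 1.30 (SE 0.15) and the inhibitory SMAD Smad6 by 1.06 (SE 0.16), with adjusted p of 1.81e-09, 7.96e-08 and 7.13e-06. All 3 BMP SMADs tested were lower, with -0.73 for Smad1, -0.48 for Smad5 and -0.26 for Smad4. Of 15 secreted antagonists, 7 were higher and 2 lower, led by Nbl1 (1.60, SE 0.12), Chrdl1 (1.23, SE 0.20) and Dand5 (0.91, SE 0.18). Of 12 receptors and co-receptors, 5 were higher and 4 lower. These counts moved by at most 1 gene under the 3 other scalings. Mstn, which encodes the muscle ligand myostatin, and the muscle co-receptor gene Hfe2 rose by 3.90 (SE 0.21) and 3.44 (SE 0.23), in the group with the highest muscle markers. Mstn was among the 4 of 5 other BMP and GDF ligands that were higher.

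The same lists gave other counts in ventral and dorsal skin, with no test of the difference between domains over a list. In ventral refractory telogen, 4 of 10 response genes were lower and 1 higher, led by Msx1 (-3.11, SE 0.25), and 5 of 15 antagonists were lower and none higher, led by Sostdc1 (-0.97, SE 0.12). These ventral directions depended on the scaling, with 5 response genes higher and 2 lower and 5 antagonists higher and 3 lower under the median of ratios. They also rest on the ventral refractory telogen libraries, the replicate pair with the widest spread. Of all genes, 8.12% were higher and 34.5% lower in this ventral comparison, so that the share of lower antagonists was that of all genes. In dorsal refractory telogen, 1 of 10 response genes was higher (Id4, 0.66, SE 0.21) and 1 lower (Msx1, -1.11, SE 0.27), and 6 of 15 antagonists were higher and 3 lower, with 1.08 for Grem1 (SE 0.18) and -1.41 for Chrdl1 (SE 0.22), where 10.8% of all genes were higher and 11.3% lower. In the growth contrast, 11 of 15 antagonists were lower in chin skin and 10 in ventral skin, with 1 higher in each, and 4 were lower and 1 higher in dorsal skin. Of all genes, 34.1% were lower in chin, 22.9% in ventral and 10.4% in dorsal skin, and 8.55%, 8.82% and 21.0% were higher, so that calls in chin and ventral skin leaned to lower in general. Under the median of ratios 7 were lower in chin and 8 in dorsal skin, and after quantile normalization 6 in each, with 1 higher throughout. Fst, the gene of follistatin, fell by 1.37 in chin skin (SE 0.06), and Fstl1 by 0.86 in ventral skin (SE 0.11). Sostdc1 fell by 1.19 in chin skin (SE 0.09) and rose by 0.63 in dorsal skin (SE 0.08), and the dorsal minus chin difference of its growth contrast was 1.82 (SE 0.12, adjusted p = 9.72e-13).

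In the ear other ligands led. In the cartilage/muscle complex, Gdf5 and Bmp5 made up 82.0% to 83.2% of the summed FPKM of the 8 ligands, and Gdf5 alone led with 46.0% to 54.4%. In ear skin Bmp7 led with 38.8% and 43.1%, and in the dorsal skin libraries of the same table Bmp4 with 36.3% and 38.3%. The summed level was 152.1 to 156.3 FPKM in the complex, 31.6 and 33.2 FPKM in ear skin and 65.7 and 67.6 FPKM in dorsal skin. The markers matched the labels of the complex, with a cartilage sum of 47144 to 49257.7 FPKM over 11 genes, a muscle sum of 22170 to 25505 FPKM, and hair shaft genes at 0. The ear skin libraries held 133.4 to 143.6 FPKM of inner root sheath genes, against 23318.8 to 23645.1 FPKM in the dorsal libraries labelled competent telogen. The study is not uniform on the stage of the dorsal skin set against the ear. Its text calls this skin refractory telogen. The legend of its figure on the ear transcriptomes calls it first telogen, which is the study's other name for competent telogen. The labels and column names also say competent telogen. The labels were followed, and the dorsal refractory telogen libraries were also tried in their place.

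All 8 ligands were tested in the ear table, among 19299 genes. Of these, Gdf5 and Gdf6 reached the filter of 0.5 FPKM through the complex libraries alone and Bmp8a through the dorsal libraries alone, where each is high. They are left out of the counts, and their differences are given without p-values. Of the other 5, all differed between the complex and dorsal skin, 3 higher and 2 lower, where 71.1% of all genes differed. All 5 differed between the complex and ear skin as well, again 3 higher and 2 lower, where 66.5% of all genes did. Between ear skin and dorsal skin 4 of the 5 differed, 1 higher and 3 lower, against 59.3% of all genes. The median of all genes lay at 0.24, -0.11 and 0.33 in these comparisons.

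Gdf5, a ligand of joint and cartilage development (chr2:155941023-155945367, minus strand), was at 74.34, 85.07 and 69.93 FPKM in the complex, at 0.43 and 0.46 FPKM in ear skin and at 0 in both dorsal libraries. The complex was 5.74 above ear skin on the log2(FPKM + 1) scale (SE 0.10) and 6.27 above dorsal skin (SE 0.10). Both skins lay below the filter, so that no test between them is given. As Gdf5 was listed at 0 in dorsal skin, no fold is given. Its relative Gdf6 (chr4:9844372-9862345, plus strand) was at 2.45, 1.77 and 2.14 FPKM in the complex, 0 and 0.02 FPKM in ear skin and 0.10 and 0.20 FPKM in dorsal skin. Gdf6 was higher in the complex than in ear skin by 1.62 (SE 0.12) and than in dorsal skin by 1.44 (SE 0.12).

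Bmp5, known from the short ear mutant of the mouse, lies at chr9:75775364-75900310 on the plus strand. The 250 bases before its RefSeq start, at chr9:75775115-75775364 on the plus strand (GRCm38.p6), where RefSeq starts the gene 1 base further on than GENCODE, are shown beside those of Bmp8a because these 2 ligands had opposite places in the ear table, Bmp5 in the complex and Bmp8a in dorsal skin.

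Bmp5, 5′ to 3′: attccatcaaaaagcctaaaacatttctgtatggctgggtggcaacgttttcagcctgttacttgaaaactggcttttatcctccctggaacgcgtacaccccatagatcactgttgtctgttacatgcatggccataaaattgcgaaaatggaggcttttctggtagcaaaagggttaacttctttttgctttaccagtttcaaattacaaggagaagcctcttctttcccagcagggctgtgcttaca

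This region held none of the 4 motifs either, and had a GC content of 42.8%, below the median of 52.4%, where that of Bmp8a lay above it. Bmp5 was at 52.58, 44.93 and 54.80 FPKM in the complex, 0.63 and 0.61 FPKM in ear skin and 0 and 0.02 FPKM in dorsal skin. No library of the complex came near one of skin. The differences were 4.99 for the complex over ear skin (SE 0.10, adjusted p = 1.87e-07), 5.67 for the complex over dorsal skin (SE 0.10, adjusted p = 8.65e-08) and 0.68 for ear skin over dorsal skin (SE 0.11, adjusted p = 0.00248). The mean of Bmp5 in ear skin was 1.22% of that in the complex, and that of Gdf5 0.582%. For cartilage genes the same share was 0.036% for Cytl1, 0.059% for Acan, 0.072% for Comp, 0.304% for Col2a1, 0.61% for Hapln1, 0.649% for Matn3 and 0.821% for Col9a1. The cartilage sum reached 20.4 FPKM in ear skin and 4.9 FPKM in dorsal skin, and its part in the ear skin values of Bmp5 and Gdf5 was not tested.

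Bmp8a, Bmp7 and Bmp4 showed the reverse order, highest in dorsal skin and lowest in the complex, while Bmp2 and Bmp6 did not. Bmp8a was at 12.54 FPKM in both dorsal libraries, 0.36 and 0.18 FPKM in ear skin, and 0, 0.07 and 0 FPKM in the complex. Ear skin was lower than dorsal skin by 3.42 (SE 0.11), and against dorsal refractory telogen by 3.80. The hair shaft sum was 39.2 to 42.4 FPKM in ear skin and 7633.6 to 7709.5 FPKM in these dorsal libraries, and its part in the difference was not tested. Bmp7 was at 14.30 and 12.27 FPKM in ear skin, 0.62, 0.58 and 0.77 FPKM in the complex and 19.88 and 19.28 FPKM in dorsal skin. It was lower in ear skin than in dorsal skin by 0.53 (SE 0.11, adjusted p = 0.00565), by 0.295 on the TPM scale and by 0.93 against dorsal refractory telogen (adjusted p = 5.46e-04). In the complex it was 3.11 below ear skin (SE 0.10, adjusted p = 1.06e-06).

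Bmp4 fell in steps, from 24.51 and 25.13 FPKM in dorsal skin over 11.25 and 11.34 FPKM in ear skin to 6.99, 7.06 and 8.55 FPKM in the complex. Ear skin was lower than dorsal skin by 1.07 (SE 0.10, adjusted p = 2.70e-04), and by 1.77 against dorsal refractory telogen (adjusted p = 3.87e-05), and the complex was lower than ear skin by 0.53 (SE 0.09, adjusted p = 0.00287). Bmp2 was at 14.99, 14.45 and 14.38 FPKM in the complex, 5.91 and 6.24 FPKM in ear skin and 9.75 and 7.86 FPKM in dorsal skin. It was higher in the complex than in ear skin by 1.14 (SE 0.10, adjusted p = 9.06e-05) and than in dorsal skin by 0.68 (SE 0.10, adjusted p = 9.11e-04). The lower level in ear than in dorsal skin, by 0.46 (SE 0.10, adjusted p = 0.00956), was lost on the TPM scale (-0.25, adjusted p = 0.0924) and without ear skin library a (-0.43, adjusted p = 0.0529). Bmp6 was at 1.52, 2.35 and 1.54 FPKM in the complex against 0.33 and 0.47 FPKM in ear skin, a difference of 0.99 (SE 0.15, adjusted p = 0.00157). Its excess over dorsal skin of 0.69 (SE 0.15, adjusted p = 0.00711) was lost with dorsal refractory telogen in place of competent telogen (0.40, adjusted p = 0.0597). For Bmp8a, ear skin and the complex both lay below the filter, and no test between them is given.

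**Figure D4:**
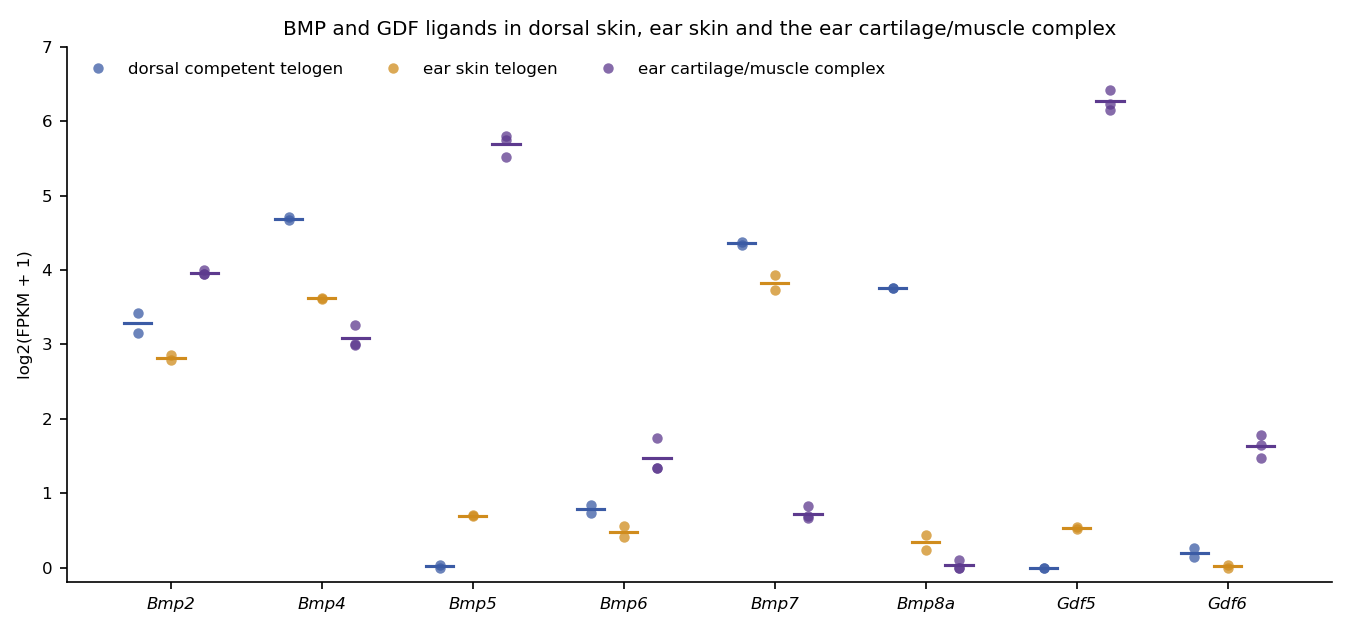
log2(FPKM + 1) (vertical axis) of the 8 ligands (horizontal axis) in the libraries of the ear table, with a point for each library and a line at the group mean, for dorsal competent telogen skin, ear skin telogen and the ear cartilage/muscle complex. Bmp5 and Gdf5 stand above all other ligands in the complex, at 44.93 to 85.07 FPKM, and near 0 in both skins, while Bmp8a is high in dorsal skin alone.

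Among the response genes of the pathway, 7 of 10 were lower in ear skin than in dorsal skin and 1 was higher, with a median difference of -0.67 against 0.33 for all genes, of which 44.7% were higher and 14.6% lower. On the TPM scale 5 of these response genes were lower and 2 higher. The dorsal libraries, which matched chin late anagen, held 23318.8 to 23645.1 FPKM of inner root sheath genes, against 133.4 to 143.6 FPKM in ear skin. The part of this in the lower response genes was not tested. Bambi was lower by 3.92 (SE 0.13), Msx2 by 2.53 (SE 0.10) and Smad7 by 1.66 (SE 0.08), with adjusted p of 3.91e-06, 9.05e-06 and 1.48e-05. Of 16 antagonists, 8 were higher and 5 lower there, Nbl1 by 1.89 (SE 0.15) and Fstl1 by 1.57 (SE 0.07) among the higher ones, and under the median of ratios 5 were higher and 6 lower. The share of higher antagonists was near that of all genes. In the complex, 8 of 10 response genes were higher than in ear skin and 2 lower, with a median of 2.80 against -0.11 for all genes, led by Bambi (4.04, SE 0.12), Atoh8 (3.40, SE 0.14) and Msx1 (3.28, SE 0.07). Against dorsal skin 6 were higher and 1 lower, with 3.16 for Id1 (SE 0.10) and -4.68 for Msx2 (SE 0.10). Of the 16 antagonists, 10 were higher and 5 lower in the complex than in dorsal skin, and 10 were higher and 4 lower than in ear skin, where 42.8% and 28.3% of all genes were higher and lower in the first comparison and 28.0% and 38.5% in the second, with Nog, the gene of Noggin, at 3.88 over dorsal skin (SE 0.12) and 3.01 over ear skin (SE 0.12). Sostdc1 was lower in the complex than in ear skin by 4.92 (SE 0.09), where skin epithelium genes summed to 3.7 to 4.4 FPKM. Of 12 receptors and co-receptors, 9 were higher and 3 lower than in dorsal skin, with Acvrl1 at 2.43 (SE 0.14), Tgfbr3 at 2.25 (SE 0.07) and Hfe2 at 2.08 (SE 0.08).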

How the data were processed

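Per the labels and methods, the authors aligned reads to mm10 and quantified GENCODE vM8 genes with RSEM 1.2.25. They reported a correction for batches that are not named, and deposited FPKM for 43 skin and 7 ear libraries. The paper does not say whether these FPKM carry the correction. Groups came from sample labels and column names. As FPKM are not counts, limma 3.58.1 (R 4.3.3; moderated variances with a trend) was run on log2(FPKM + 1) of each gene that reached 0.5 FPKM in 2 or more libraries, and p-values were adjusted over all genes (Benjamini-Hochberg, 0.05). Skin libraries were fitted together as 18 groups, ear libraries alone. Same-numbered libraries did not deviate together (median r = 0.003 over 327 pairs), so numbers were not used as pairs. The fits were tested on simulated data. Summaries used Python 3.11.15, numpy 2.4.6, pandas 2.3.3 and matplotlib 3.10.9. Depth, estimated from steps of single fragments in the FPKM, covers counting error only. Gene positions came from GENCODE vM21 (GRCm38).

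Members, lists and tests were chosen with earlier results of these data known. Per list and comparison up to 3 genes with the largest called difference were named, and per member the 3 genes closest in pattern. Alternatives were a pseudocount of 0.1, no filter, a minimum of 5 FPKM, TPM, median of ratios or quantile scaling, a fit with no trend, a replicate block, single domains or stages, dorsal refractory telogen for the ear comparison, and each library left out. Leaving out or averaging whole groups, and contrasts of contrasts between domains, were chosen after seeing the data. The marker genes Krt85 and Snorc were not used here.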

Additional observations from a re-analysis of the deposited data

Results flagged for a closer look

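For 4 of the 6 ligands tested, the course over the 6 stages differed between chin, ventral and dorsal skin, by the interaction test in limma. The same test called 73.3% of all genes. The adjusted p was 7.72e-07 for Bmp2, 3.83e-06 for Bmp4, 5.16e-08 for Bmp7 and 4.36e-12 for Bmp8a.

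The change from competent to refractory telogen differed between domains, by the test of the difference itself, for Bmp4, Bmp7 and Bmp8a. On the log2(FPKM + 1) scale, the ventral minus the chin change was 0.54 for Bmp7 and 1.62 for Bmp8a. The dorsal minus the chin change was 0.92 for Bmp4, 0.43 for Bmp7 and 1.73 for Bmp8a. The dorsal minus the ventral change was 0.64 for Bmp4, with the losses given above. Every dorsal change here rests on the competent telogen libraries that matched chin late anagen.

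The contrast of mid- and late anagen with both telogens differed between domains by the same kind of test for Bmp2, Bmp7 and Bmp8a. The ventral minus the chin contrast was 0.60 for Bmp2 and -0.45 for Bmp8a (adjusted p = 0.0399), and the latter was lost on the TPM scale (-0.28, adjusted p = 0.24), with no filter on low values (adjusted p = 0.0654) and when any 1 of 12 libraries was left out. The dorsal minus the chin contrast was -0.42 for Bmp7 and -0.59 for Bmp8a. The chin contrast of Bmp8a in both of its differences rests on refractory telogen. The dorsal minus the ventral contrast was -0.55 for Bmp2 and -0.27 for Bmp7 (adjusted p = 0.00288), and the latter was lost without the competent telogen groups (-0.22, adjusted p = 0.107).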

How the results depend on the processing

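The calls from competent to refractory telogen numbered 4 over the 3 domains. They rose to 7 under the median of ratios and to 8 with quantile normalization, and were 2 without the chin late anagen and dorsal competent telogen groups, which leaves no dorsal comparison. The cause of the first 2 changes was not tested. Without single libraries, calls ranged from 12 to 14 over the stages (13 with all), 5 to 8 in the growth contrast (7), 4 to 6 in the telogen comparison, 16 to 18 between domains (18), 4 to 5 for the interaction (4) and 19 to 23 in the ear table (22), of which 7 to 8 between the complex and dorsal skin (8). The ear counts here include Gdf5, Gdf6 and Bmp8a, which passed the filter through 1 tissue alone. Of all genes, 71.1% differed between the complex and dorsal skin. The replicate block gave 13, 7, 4, 18 and 4 calls in skin and 8 between the complex and dorsal skin, and the numbers did not pair the samples. The numbers in the ear skin titles and columns could not be matched, so ear skin had no block. Of 82 other counts under alternatives, 79 stayed within 1.5 times the count as reported. Of 3384 single values under alternatives, 110 lost their call and none reversed. Depth limits Bmp5, Gdf5 and Gdf6 in skin, where 1 fragment was worth up to 0.0697 FPKM.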
